A study of Arabidopsis thaliana with 4 samples.

Results

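The Aux/IAA and group II GH3 genes of Arabidopsis thaliana are the classical early auxin response genes. They were followed here as 36 loci, 29 of the Aux/IAA family and 7 group II GH3 genes, among 33602 genes in the deposited table. The members were taken by locus identifier, and earlier results of these data were known when they were chosen. RNA came from whole seedlings of the Columbia (Col) ecotype, for which the labels name no mutant allele or transgene, raised for 14 days in half-strength MS medium lacking nitrogen. The 0 h group is labelled with that medium alone, and the 0.5 h group had been transferred for 0.5 h to the same medium with 2.5 mM glutamine (Gln). Each group held 2 libraries, and the study asks which genes respond early to glutamine. Seedlings transferred without glutamine were not analysed here, so glutamine, transfer and elapsed time differ together between the groups and cannot be told apart. The labels do not say that the libraries came from separate cultures, so p-values measure only the spread between these libraries.

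Aux/IAA proteins are short-lived nuclear repressors. They bind the auxin response factors (ARFs) that sit on auxin-regulated promoters and bring in co-repressors of the TOPLESS family. Auxin joins an Aux/IAA protein to a TIR1/AFB receptor, an F-box protein, which leads to degradation of the repressor and frees the ARF. Many Aux/IAA genes are themselves switched on by auxin, which makes a feedback loop. Group II GH3 enzymes join indole-3-acetic acid (IAA, the main auxin) to amino acids, which stores it or commits it to breakdown, and several of their genes are also induced by auxin.

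The 0 h libraries held 26069129 and 27203579 recovered reads, and the 0.5 h libraries 26075036 and 20429735. Levels are RPKM (reads per kilobase of gene, scaled to library size), so they can be compared between genes. Changes are log2 fold changes on log2(RPKM + 1), 0.5 h over 0 h, with the limma standard error, and they understate the change of genes near 1 RPKM. A gene was called at a Benjamini-Hochberg adjusted p below 0.05 over all 18039 genes whose mean level reached 1 RPKM, of which 26 were members. As whole seedlings were used, fewer cells of a type and less RNA per cell cannot be told apart. Markers of both shoot and root were detected in the RNA. Of 6 shoot markers, all with a mean of at least 318 RPKM, 4 were called lower and 0 higher, against 5.11% and 6.71% of all genes tested. The summed level of the 6 was 28081 and 28394 RPKM at 0 h against 23314 and 23371 at 0.5 h. Most of this sum came from LHCB1.3 and RBCS1A. The 4 called lower were LHCB4.2, LHCB3, LHCA1 and PSAD1, with means 3.28-fold, 2.84-fold, 1.82-fold and 1.73-fold lower at 0.5 h. The 2 not called were LHCB1.3 and RBCS1A, and RBCS1A had 7681 and 7963 RPKM at 0 h and 7605 and 8092 at 0.5 h. The summed level of 7 root markers was 167 and 292 RPKM at 0 h and 184 and 177 at 0.5 h, 0 of them were without reads throughout, and neither of the 2 tested was called. The most abundant shoot marker was LHCB1.3, with 15739 and 15997 RPKM at 0 h and 13555 and 12922 at 0.5 h. The most abundant root marker was PYK10, with 158 and 273 RPKM at 0 h and 165 and 166 at 0.5 h. The part of tissue make-up in the results below was not tested.

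At 0.5 h, 5 of the 26 tested members were lower and 0 were higher by limma. The auxin-conjugating enzyme genes GH3.2 and GH3.5 fell 5.42-fold and 2.14-fold in mean RPKM, and the repressor genes IAA1, IAA2 and IAA13 fell 2.04-fold, 1.83-fold and 1.98-fold. The members called lower made up 19.2% of those tested, against 5.11% of all genes tested, and the share called higher over all genes was 6.71%. At an unadjusted limma p below 0.05, 2 members had a fitted rise, IAA3 and IAA17. At that level IAA11, IAA26, GH3.3 and GH3.17 had a fitted fall besides the 5 called members. The share of all genes at that level was not computed, so whether these members exceed it is not known. The median change of the 26 was -0.19, beside -0.03 over all genes tested. Both 0.5 h libraries lay below both 0 h libraries for 12 members, where 32.6% of all genes tested did so, and above them for 5, where 27.1% did so.

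**Figure D1:**
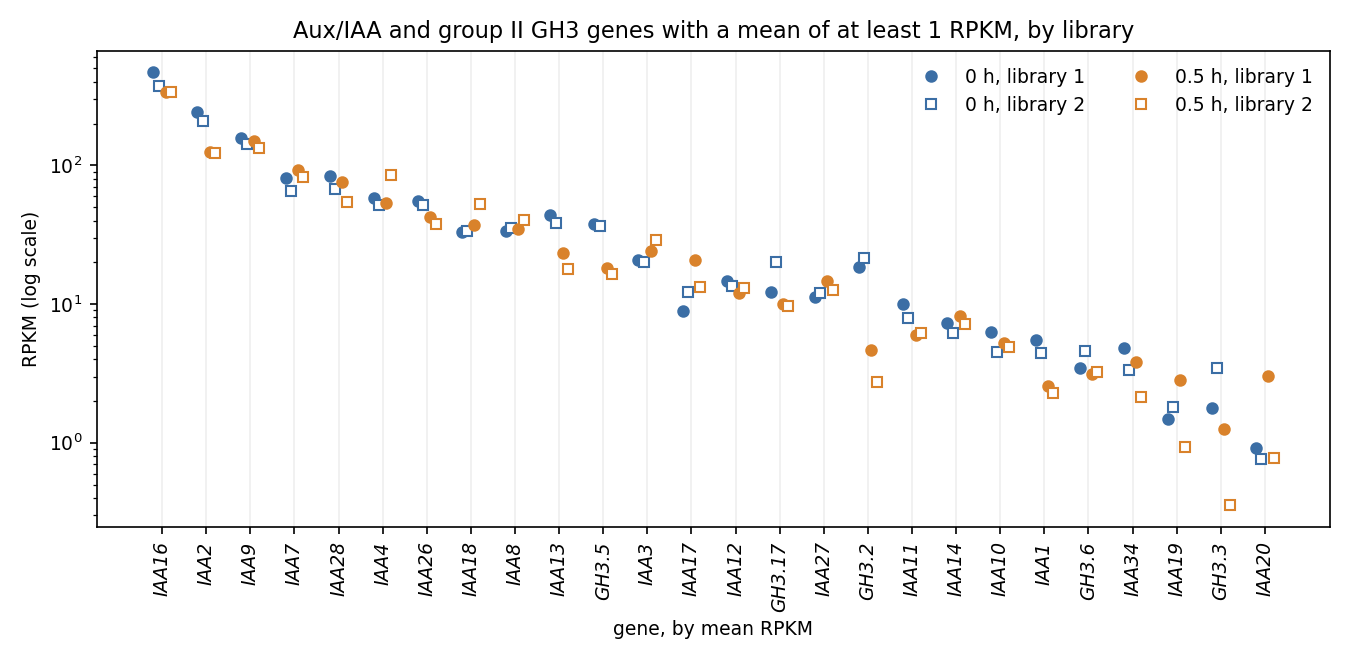
Level of each tested member in each of the 4 libraries (RPKM, log scale), ordered by mean level; blue is 0 h and orange 0.5 h, circles are library 1 and squares library 2. IAA16 had the highest level, from 338 to 468 RPKM, and the 0.5 h points of GH3.2, GH3.5, IAA1, IAA2 and IAA13 lay below those of 0 h.

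The stretches just upstream of the called genes are shown because they fell together and because auxin response factors are known to bind short elements in such promoters; GH3.3 is added as the third GH3 gene with a canonical element. Each is the 250 bases before the annotated gene start, 5′ to 3′ on the gene's strand, taken by locus tag from the RefSeq genome TAIR10.1. The submitters' processing notes name TAIR10, and the deposited table gives no coordinates. Capitals mark the auxin response element TGTCTC, its variant TGTCGG and the G-box CACGTG, each searched on both strands. TGTCTC and TGTCGG share their first 4 letters but cannot match at the same place. The windows are chr4:17579368-17579617 (plus strand) for GH3.2, chr2:9866563-9866812 (minus strand) for GH3.3, chr4:13653329-13653578 (plus strand) for GH3.5, chr4:8360746-8360995 (plus strand) for IAA1, chr3:8182096-8182345 (minus strand) for IAA2 and chr2:14116090-14116339 (minus strand) for IAA13.
GH3.2: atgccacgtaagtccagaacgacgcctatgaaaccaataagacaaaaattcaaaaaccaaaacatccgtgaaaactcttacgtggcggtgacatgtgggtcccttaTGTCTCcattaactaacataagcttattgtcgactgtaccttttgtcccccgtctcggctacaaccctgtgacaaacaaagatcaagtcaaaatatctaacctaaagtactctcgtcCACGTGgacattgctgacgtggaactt
GH3.3: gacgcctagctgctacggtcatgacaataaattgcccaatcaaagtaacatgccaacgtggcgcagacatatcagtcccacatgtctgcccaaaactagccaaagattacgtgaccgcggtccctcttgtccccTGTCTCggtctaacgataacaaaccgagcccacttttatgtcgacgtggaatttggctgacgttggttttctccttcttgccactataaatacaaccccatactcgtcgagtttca
GH3.5: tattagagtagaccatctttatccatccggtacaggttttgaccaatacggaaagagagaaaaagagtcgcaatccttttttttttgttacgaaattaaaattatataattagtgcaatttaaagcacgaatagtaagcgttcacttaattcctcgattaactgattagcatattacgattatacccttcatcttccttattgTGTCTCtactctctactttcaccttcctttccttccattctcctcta
IAA1: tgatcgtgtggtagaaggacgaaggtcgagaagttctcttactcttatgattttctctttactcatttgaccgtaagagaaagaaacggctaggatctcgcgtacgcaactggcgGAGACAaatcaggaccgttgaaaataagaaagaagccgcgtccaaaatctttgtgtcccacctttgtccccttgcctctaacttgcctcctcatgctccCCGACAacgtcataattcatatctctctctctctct
IAA2: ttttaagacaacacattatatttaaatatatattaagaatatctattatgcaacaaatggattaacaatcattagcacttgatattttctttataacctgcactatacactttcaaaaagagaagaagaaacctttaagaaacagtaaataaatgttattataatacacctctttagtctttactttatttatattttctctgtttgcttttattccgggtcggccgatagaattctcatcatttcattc
IAA13: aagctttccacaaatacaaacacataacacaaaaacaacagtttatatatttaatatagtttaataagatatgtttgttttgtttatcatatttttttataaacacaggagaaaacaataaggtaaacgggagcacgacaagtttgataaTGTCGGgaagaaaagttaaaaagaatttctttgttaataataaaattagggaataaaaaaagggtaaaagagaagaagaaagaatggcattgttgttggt
In GH3.2 the element TGTCTC begins 144 bases before the gene start and a G-box 27 bases before it. GH3.3 holds TGTCTC at 116 bases and GH3.5 at 47 bases. IAA1 holds TGTCTC at 135 bases and TGTCGG at 36 bases, both read from the other strand as GAGACA and CCGACA. IAA13 has TGTCGG at 100 bases, and the IAA2 window has none of these letters. Over all 36 members, 12 windows (33.3%) held TGTCTC, against 10.9% of 27443 windows of protein-coding genes of the same length. TGTCGG was in 6 (16.7%), against 4.16%, and the G-box in 5 (13.9%), against 6.49%. Among the GH3 genes, the 3 with TGTCTC were GH3.2, GH3.3 and GH3.5. TGTCTC was also present in members that were not called, namely IAA8, IAA20, IAA34, GH3.3 and, with 3 copies, IAA19. It was in IAA5, IAA6, IAA30 and IAA32 too, which were below the minimum for testing. A match is a description of letters and not a binding site.

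GH3.2 and GH3.5 had the largest fitted changes among the 26 tested members. Of the 7 GH3 genes, 5 were tested, 2 were called lower, and all 5 had both 0.5 h libraries below both 0 h libraries. Over all genes tested, 5.11% were called lower and 32.6% had that order of libraries. GH3.2 (AT4G37390), whose enzyme conjugates IAA and whose overexpression dwarfs plants, had 18.6 and 21.3 RPKM at 0 h and 4.64 and 2.74 at 0.5 h. The groups were far apart, and the change was -2.19 ± 0.21 (limma adjusted p = 0.0047). GH3.5 (AT4G27260), an enzyme that also acts on salicylic acid, had 37.6 and 36.4 RPKM at 0 h and 18.2 and 16.4 at 0.5 h. Replicates lay close together within each group, and the change was -1.06 ± 0.13 (limma adjusted p = 0.0068). The calls of both GH3.2 and GH3.5 held in 15 of 15 alternative settings.

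GH3.3 (AT2G23170), another auxin-inducible conjugating enzyme gene, had 1.77 and 3.44 RPKM at 0 h and 1.26 and 0.355 at 0.5 h. Its libraries differed widely within both groups, and the change of -1.00 ± 0.32 did not pass (limma adjusted p = 0.096). It passed without the 1st library at 0.5 h (-1.37, limma adjusted p = 0.043). GH3.17 (AT1G28130), whose enzyme favours glutamate as the partner of IAA, had 12.1 and 20.2 RPKM at 0 h and 10.1 and 9.69 at 0.5 h. The 0 h libraries differed widely, and the change of -0.62 ± 0.22 did not pass (limma adjusted p = 0.13), though it did without the 1st library at 0 h (-0.96, limma adjusted p = 0.039). GH3.6 (AT5G54510), also known as DFL1 for its short hypocotyl when overexpressed, had 3.47 and 4.56 RPKM at 0 h and 3.15 and 3.23 at 0.5 h, and was not called. GH3.1 and GH3.4 were below the minimum for testing, with at most 4 and 2 reads in a library.

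The summed level of the 7 GH3 genes was 73.6 and 86.0 RPKM at 0 h and 37.4 and 32.4 at 0.5 h. GH3.5 supplied 42.3 to 51.0% of the sum at 0 h and 48.6 to 50.5% at 0.5 h, so its share overlapped between the times. The share of GH3.2 was 25.3 and 24.8% at 0 h and 12.4 and 8.45% at 0.5 h. That of GH3.17 was 16.5 and 23.5% at 0 h and 27.0 and 29.9% at 0.5 h.

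Among Aux/IAA genes, 21 of 29 were tested, with a median change of -0.07. Of these, 3 were called lower (14.3%, against 5.11% of all genes tested) and 0 higher (against 6.71%). Without the 1st library at 0 h, or without the 2nd at 0.5 h, 0 were called lower, and the same held without a minimum on the mean RPKM. IAA20 was called higher without the 2nd library at 0.5 h. The fits without a library rest on fewer samples, and the lone sample of a group is assumed to vary like the others. In the same 3 settings the fitted changes of IAA1, IAA2 and IAA13 stayed below 0, at -0.66 to -0.96.

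IAA1 and IAA2 are a closely related pair of small repressors that auxin induces strongly. IAA2 (AT3G23030) had 242 and 210 RPKM at 0 h and 125 and 122 at 0.5 h, a change of -0.86 ± 0.15 (limma adjusted p = 0.017). The groups did not overlap, and the 0.5 h libraries were nearly equal. IAA1 (AT4G14560) was far less abundant, with 5.48 and 4.43 RPKM at 0 h and 2.57 and 2.29 at 0.5 h. Its change was -0.79 ± 0.16 (limma adjusted p = 0.027), on 110 and 99 reads in the 0 h libraries and 58 and 39 in those of 0.5 h. The call of IAA1 also ended in limma-voom on recovered reads (-1.01, limma-voom adjusted p = 0.051) and without the 2nd library at 0 h (limma adjusted p = 0.069). IAA3 and IAA4 are the next relatives of this pair. IAA3 (AT1G04240), known as SHY2, had 20.7 and 20.0 RPKM at 0 h and 24.2 and 28.8 at 0.5 h, with both 0.5 h values higher and no call (0.36 ± 0.14, limma adjusted p = 0.15). IAA4 (AT5G43700) had 58.1 and 51.8 RPKM at 0 h and 53.1 and 85.0 at 0.5 h, and the groups overlapped. The difference in change between IAA1 or IAA2 and IAA3 or IAA4 was not tested.

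IAA13 and IAA12 form another related pair; IAA12, or BODENLOS, is known for its part in forming the embryonic root. IAA13 (AT2G33310) had 44.0 and 38.4 RPKM at 0 h and 23.5 and 18.0 at 0.5 h, a change of -0.96 ± 0.17 (limma adjusted p = 0.017). All values at 0.5 h were well below those at 0 h. IAA12 (AT1G04550) had 14.7 and 13.5 RPKM at 0 h and 12.1 and 13.1 at 0.5 h, and its change of -0.15 ± 0.13 was not called. The gene AT2G33300 overlaps IAA13 on the other strand and held 0 reads in all 4 libraries. Of the related IAA10 and IAA11, IAA11 (AT4G28640) had 9.99 and 7.89 RPKM at 0 h and 5.98 and 6.22 at 0.5 h (-0.48 ± 0.15, limma adjusted p = 0.092). IAA11 overlaps AT4G28650 on the opposite strand, which had 6.13 and 6.93 RPKM at 0 h and 7.25 and 7.85 at 0.5 h. Whether strand was used in counting is not known, so reads of such overlapping genes cannot be told apart. IAA10 (AT1G04100) had 6.27 and 4.53 RPKM at 0 h and 5.21 and 4.89 at 0.5 h, with overlapping groups. It too overlaps a gene on the opposite strand, AT1G04105, which is not used here.

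**Figure D2:**
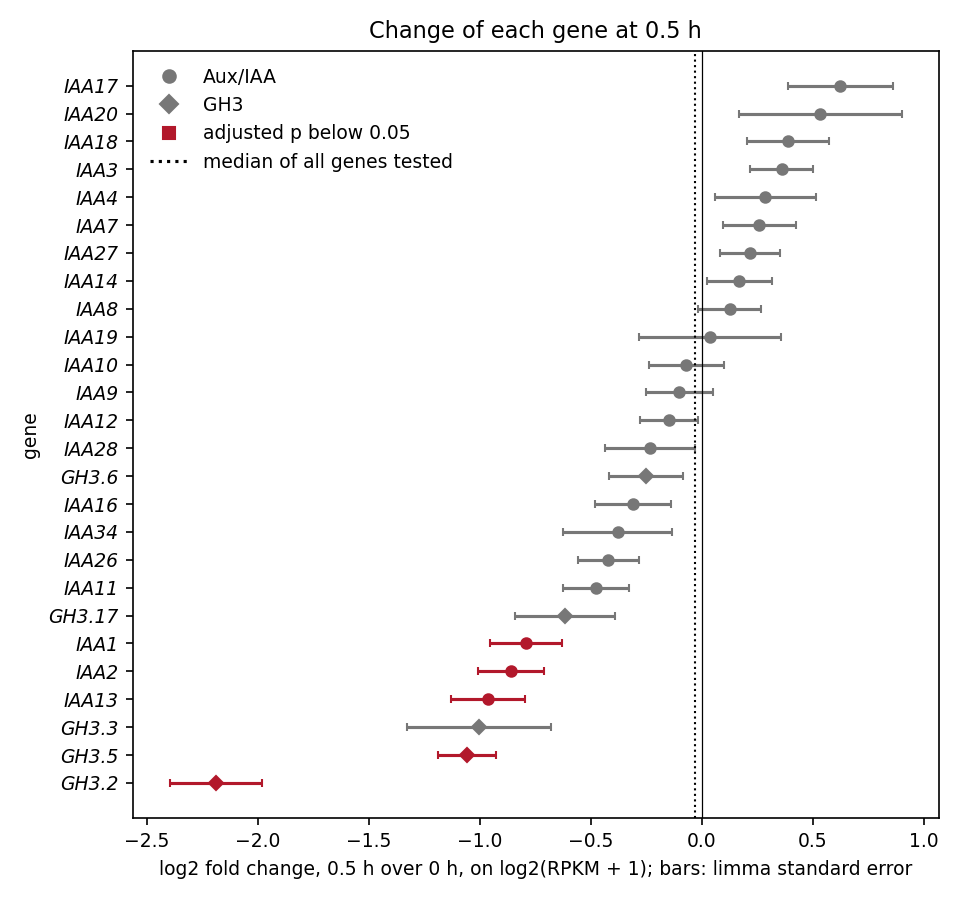
Log2 fold change of each tested member at 0.5 h over 0 h on log2(RPKM + 1), with bars for the limma standard error; circles are Aux/IAA and diamonds GH3 genes, red marks an adjusted p below 0.05, and the dotted line is the median of all genes tested. GH3.2 stands lowest at -2.19, and the 5 called genes lie between that and -0.79.

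3 pairs of Aux/IAA genes lie next to each other in the genome, each pair with its genes on opposite strands and pointing away from each other. The pairs are IAA1 with IAA14, IAA2 with IAA7, and IAA3 with IAA17. IAA14 (AT4G14550), known as SOLITARY-ROOT for its block of lateral roots when stabilised, had 7.30 and 6.17 RPKM at 0 h and 8.23 and 7.15 at 0.5 h. It was not called, while its neighbour IAA1 fell. IAA7 (AT3G23050), or AXR2, had 81.5 and 65.4 RPKM at 0 h and 92.6 and 82.9 at 0.5 h, so that the values at 0.5 h were higher and not called (0.26 ± 0.16, limma adjusted p = 0.34), while its neighbour IAA2 fell. IAA17 (AT1G04250), or AXR3, had 8.88 and 12.3 RPKM at 0 h and 20.9 and 13.3 at 0.5 h. Its fitted change was the highest among the members, 0.62 ± 0.24, but the 0.5 h libraries differed widely and it did not pass (limma adjusted p = 0.14). Its neighbour IAA3 was also higher at 0.5 h without a call. IAA3 overlaps AT1G04230 on the opposite strand, which had 10.8 to 12.3 RPKM over the 4 libraries.

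**Figure D3:**
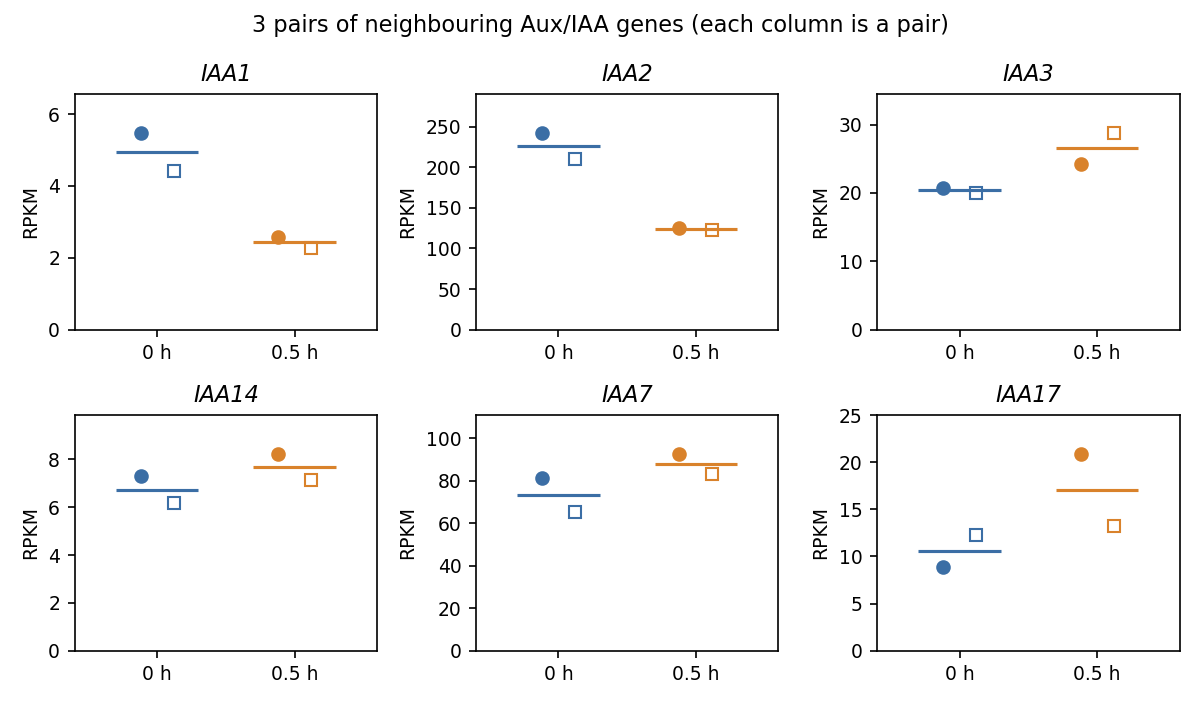
Level (RPKM, axes from 0) of the 3 neighbouring pairs, a pair per column, at 0 h (blue) and 0.5 h (orange); circles are library 1, squares library 2 and lines the mean of 2. IAA1 and IAA2 fell to means of 2.43 and 124 RPKM, while the means of IAA14 and IAA7 were 7.69 and 87.7 RPKM at 0.5 h against 6.74 and 73.4 at 0 h.

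The most abundant Aux/IAA genes were IAA16, IAA2 and IAA9. IAA16 (AT3G04730), a repressor whose stabilised form lowers the response to auxin and abscisic acid, had 468 and 376 RPKM at 0 h and 338 and 338 at 0.5 h. Both later values were lower, and the change of -0.31 ± 0.17 was not called (limma adjusted p = 0.28). IAA9 (AT5G65670) had 158 and 143 RPKM at 0 h and 149 and 132 at 0.5 h, and its groups overlapped; it overlaps AT5G09425 on the opposite strand. At 0 h the mean of IAA2, 226 ± 22.7 RPKM (SD, n = 2), stood above that of IAA9, 151 ± 10.6. At 0.5 h it stood below, 124 ± 2.18 against 141 ± 11.8, with no overlap at either time. The summed level of the 29 genes was 1351 and 1162 RPKM at 0 h and 1076 and 1056 at 0.5 h. IAA16 made up 32.3 to 34.6% of it at 0 h and 31.4 to 32.0% at 0.5 h. The share of IAA2 went from 17.9 and 18.1% to 11.7 and 11.6%, and that of the 3 genes called lower from 21.6 and 21.8% to 14.1 and 13.5%.

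Of the other tested Aux/IAA genes, none was called. IAA26 (AT3G16500), whose protein was found as a phytochrome-associated protein, had 55.7 and 51.5 RPKM at 0 h and 42.1 and 37.6 at 0.5 h. The groups did not overlap, and the change of -0.42 ± 0.14 missed the threshold (limma adjusted p = 0.10). IAA18 (AT1G51950) had 32.8 and 33.9 RPKM at 0 h and 36.8 and 52.4 at 0.5 h (0.39 ± 0.19, limma adjusted p = 0.22). IAA27 (AT4G29080), also found as a phytochrome-associated protein, had 11.2 and 12.0 RPKM at 0 h and 14.6 and 12.7 at 0.5 h, higher in both later libraries without a call. It overlaps AT4G29070 on the opposite strand, which had 35.2 and 30.4 RPKM at 0 h and 24.9 and 31.5 at 0.5 h. IAA8 (AT2G22670) had 33.5 and 35.3 RPKM at 0 h and 34.8 and 40.6 at 0.5 h, and IAA28 (AT5G25890), a repressor of lateral root formation, had 84.1 and 67.4 RPKM at 0 h and 75.5 and 54.1 at 0.5 h. For IAA8 and IAA28 the groups overlapped.

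IAA19 and IAA20 were the tested Aux/IAA genes with the lowest mean levels. IAA19 (AT3G15540), known as MASSUGU2 for its part in hypocotyl bending, had 1.48 and 1.83 RPKM at 0 h and 2.83 and 0.924 at 0.5 h. IAA20 (AT2G46990), a repressor without the degradation motif of the family, had 0.919 and 0.768 RPKM at 0 h and 3.01 and 0.777 at 0.5 h. Both were highest in the 1st library at 0.5 h and overlapped between the groups. IAA20 was called higher when the 2nd library at 0.5 h was left out (1.12, limma adjusted p = 0.047) and had a change of -0.05 when the 1st was left out. The root hair marker EXPA7 was also highest in that library, with 0.422 and 1.06 RPKM at 0 h and 1.76 and 0.0704 at 0.5 h. The root marker PIN2, an auxin efflux carrier, had 0.678 and 0.625 RPKM at 0 h and 1.37 and 0.370 at 0.5 h. Of the 7 root markers, 3 were highest in this library, 3 in the 2nd library at 0 h and 1 in the 2nd at 0.5 h. CASP1, among those highest in the 2nd library at 0 h, had 7.69 and 15.9 RPKM at 0 h and 13.05 and 8.64 at 0.5 h. Of the 36 members, 10 were highest in the 1st library at 0.5 h. The part of root markers in the values of IAA19 and IAA20 was not tested. IAA34 (AT1G15050), another member without the degradation motif, had 4.80 and 3.37 RPKM at 0 h and 3.79 and 2.13 at 0.5 h. Its groups overlapped, it was not called, and the gene overlaps AT1G15060 on the same strand. AT1G15060 had 6.59 and 8.24 RPKM at 0 h and 5.48 and 5.53 at 0.5 h, above IAA34 in each library. The part of its reads in the values of IAA34 was not tested.

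The 10 untested members had 0.0101 to 0.991 RPKM, on 0 to 23 reads per library. IAA29 (AT4G32280), a repressor gene known to respond to shade, counted 17 and 23 reads in the 0 h libraries and 6 and 0 in those of 0.5 h, or 0.734 and 0.886 against 0.242 and 0.0245 RPKM. It entered the fit without a minimum, where it was not called (limma adjusted p = 0.072). IAA32 (AT2G01200), which like IAA20 has no degradation motif, counted 5 and 9 reads in the 0 h libraries and 23 and 6 in those of 0.5 h. IAA5, IAA6, IAA30, IAA31 and IAA33 had at most 7 reads in a library, and IAA15 had 0 in all 4. At this depth no difference in these last 6 genes was detectable.

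The remaining auxin pathway was read from 7 lists with 72 genes, of which 45 were tested, 3 were called lower (6.67%) and 1 higher (2.22%). Over all genes tested, 5.11% were called lower and 6.71% higher. In auxin synthesis 1 of 5 tested genes was called higher and 0 lower. It was YUC5, a flavin monooxygenase of the last step to IAA, which had 1.35 and 2.06 RPKM at 0 h and 7.06 and 11.0 at 0.5 h, a 5.31-fold higher mean (1.88 ± 0.23, limma adjusted p = 0.0068). Of 12 other auxin-induced genes (SAUR, LBD, HAT2 and ACS4), 4 were tested, of which 2 were called lower and 0 higher. This list, like the others, was chosen with earlier results of these data known, so its counts are no independent support. HAT2, an auxin-induced homeodomain-leucine zipper factor, had 24.0 and 23.2 RPKM at 0 h and 4.46 and 2.09 at 0.5 h, a 7.21-fold lower mean (-2.58 ± 0.25, limma adjusted p = 0.0047). The small auxin up RNA gene SAUR15 had 2.24 and 2.45 RPKM at 0 h and 0.830 and 0.428 at 0.5 h (-1.05 ± 0.21, limma adjusted p = 0.024). It counted only 27 and 33 reads in the 0 h libraries and 11 and 4 in those of 0.5 h. Its call ended without the 1st or 2nd library at 0 h or the 2nd at 0.5 h (limma adjusted p = 0.072 to 0.13).

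Of 3 tested GH3 genes outside the 7 members, 1 was called lower and 0 higher. It was GH3.11, or JAR1, whose enzyme makes the active jasmonate conjugate, with 32.5 and 31.2 RPKM at 0 h and 21.2 and 18.4 at 0.5 h (-0.66 ± 0.14, limma adjusted p = 0.028). Its call, too, ended without either library at 0 h or the 2nd at 0.5 h (limma adjusted p = 0.093 to 0.12). None of 6 TIR1/AFB receptor genes was called, with changes between -0.10 and 0.17, and TIR1 had 34.8 and 40.1 RPKM at 0 h and 35.5 and 33.9 at 0.5 h. None of 15 tested ARF genes was called, with changes between -0.38 and 0.50; the most abundant, ARF2, had 75.0 and 64.6 RPKM at 0 h and 71.9 and 79.1 at 0.5 h. The 5 TOPLESS co-repressor genes were not called either. Both 0.5 h values lay below both 0 h values in all 5, where 32.6% of all genes tested did so. TPL had 39.7 and 39.0 RPKM at 0 h and 37.3 and 29.1 at 0.5 h. Without a minimum on the mean RPKM the 4 called list genes missed the threshold (limma adjusted p = 0.059 for YUC5, 0.051 for HAT2, 0.063 for SAUR15 and 0.071 for GH3.11). Among 7 tested genes of IAA oxidation and conjugate hydrolysis 0 were called, and ILL1, a hydrolase that frees IAA from conjugates, had 20.8 and 20.7 RPKM at 0 h and 22.1 and 19.2 at 0.5 h.

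**Figure D4:**
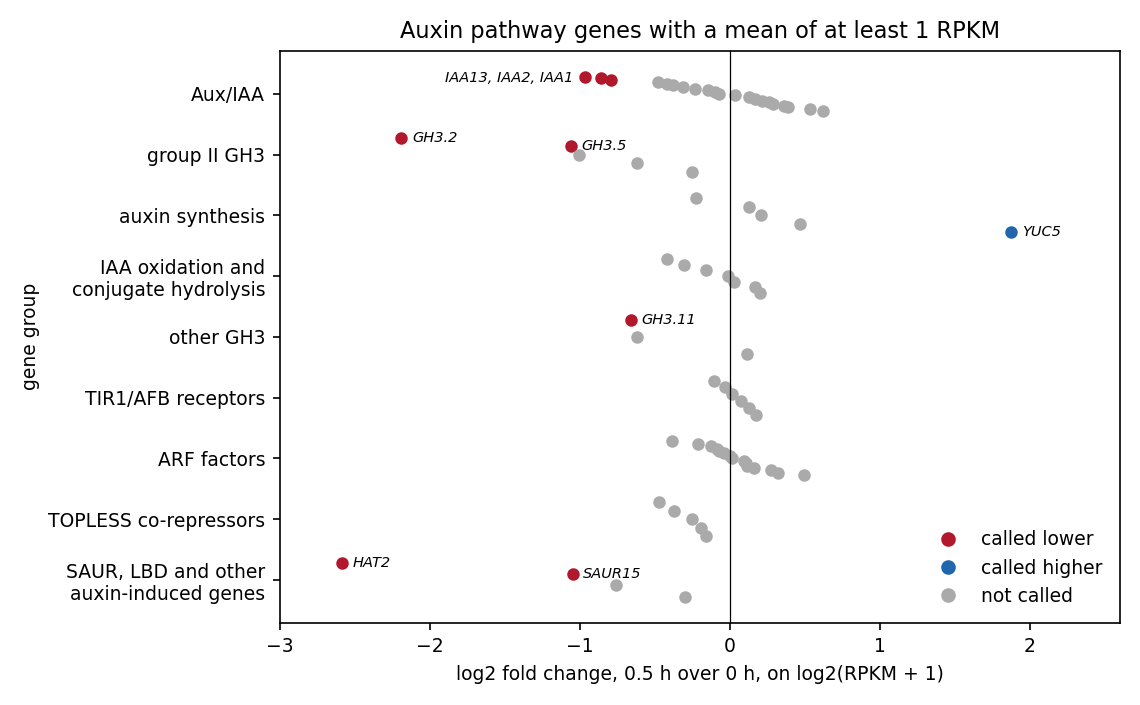
Log2 fold change at 0.5 h over 0 h, on log2(RPKM + 1), of each tested gene in 9 groups of the auxin pathway; each point is a gene, red was called lower, blue called higher and grey not called. HAT2 and GH3.2 lie lowest at -2.58 and -2.19, YUC5 highest at 1.88, and the receptor genes within -0.10 to 0.17.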

How the data were processed

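RNA of 4 libraries, 2 at 0 h and 2 at 0.5 h, was compared, with groups taken from the sample titles. The authors deposited RPKM values scaled with TMM, as the name of the deposited table says, with the gene length. The TAIR10 build and SAMtools are named per the submitters' processing notes, and libraries were made with a TruSeq kit per the labels' protocols. No source used here gives the aligner, the counter or the use of strand. The deposited table also gives a fraction per gene, by its name the highest share of multi-mapped reads, which was at most 0.0143 in the members.

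RPKM times length moves in steps of 1 read above an offset of 0.5 read, from which reads were recovered as a check of depth. Within 0.05 read they were whole for 100% of genes lacking multi-mapped reads and 47.5 to 51.7% of the others. Values of genes whose mean reached 1 RPKM were fitted on log2(RPKM + 1) with limma 3.58.1 (R 4.3.3) using the trend option and the group as the only term (2 residual and 4.82 prior degrees of freedom). P-values were two-sided. The fit was tested on simulated data with changes larger than those of IAA1, IAA2, IAA13 and GH3.5, so that test does not bear on their calls. An exact permutation of 2 against 2 libraries cannot go below p = 0.333, so none is given. Python 3.11.15 with pandas 2.3.3, numpy 2.4.6 and matplotlib 3.10.9 made tables and plots. Alternatives are in the closing section. The members, lists and settings were chosen with earlier results of these data known. Values are named for every tested member, and for list genes for up to 3 called, or else the most abundant. RBCS1A, the 4 shoot markers called lower, ARF11, CASP1, EXPA7, PIN2, IAA29 and IAA32 were added after their values were seen. Overlapping genes came from the RefSeq TAIR10.1 annotation, which held all 36 members.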

Additional observations from a re-analysis of the deposited data

How the results depend on the processing

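The comparison was refitted in 15 alternative settings. In the 11 that keep all libraries, the members' changes kept direction and call in 274 cases, with 4 calls lost and 2 changes of sign, both in IAA19 (-0.0087 with a pseudocount of 0.1 and -0.023 with quantile normalization). Without a minimum on the mean RPKM 163 genes were called higher and 85 lower, against 1211 and 922; Aux/IAA genes called lower went from 3 to 0, and auxin pathway genes to 0 higher and 0 lower. The cause was not tested. ILL1 was at 0.017 with median-of-ratios scaling and 0.015 with quantile normalization. Limma-voom on recovered reads called 2 pathway genes higher, YUC5 and ARF11 (limma-voom adjusted p = 0.046 for ARF11).

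Leaving out each library in turn gave 489 to 1131 genes called higher and 234 to 787 lower, 0 to 3 Aux/IAA genes lower and 0 to 1 higher, and 1 to 4 auxin pathway genes lower, with fewer samples in each fit. GH3 genes called lower numbered 2 to 3, GH3.2 and GH3.5 in every such fit. Ranges that crossed 0 were -0.047 to 0.62 for IAA4, -0.27 to 0.13 for IAA10, -0.46 to 0.53 for IAA19, -0.052 to 1.12 for IAA20, -0.47 to 0.0037 for IAA28, -0.11 to 0.084 for ILL1 and -0.72 to 0.070 for PYK10.

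With the replicate number as a block, 1127 genes were higher and 834 lower, and the 5 calls among the members were unchanged. Same-numbered libraries did not deviate together (r = -0.08 across genes), so the numbers are not taken as pairs. With 2 libraries per time, small changes in members below a few RPKM cannot be resolved.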
